A study of Homo sapiens with 12 samples.

Results

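The 10 genes described here are markers of naive pluripotency: TFCP2L1, DPPA2, DPPA3, DPPA4, DPPA5, UPP1, ZFP42, TBX3, NLRP7 and SUSD2. They were taken by symbol from the deposited table of raw counts, which holds 53712 named genes, and all 10 were among the 17228 genes that passed the filter on low counts and were tested. The RNA came from H9, an established line of human embryonic stem cells, grown in RSeT, a commercial medium for naive-state culture. Of the 12 libraries, 4 came from cells given ASO-Ctr, antisense oligos without a specific target. Another 4 came from cells given SO-L1, sense oligos to LINE1 (L1), and 4 from cells given ASO-L1, antisense oligos to L1. L1 is a family of mobile elements that is transcribed in early embryos, and the study asks about its part in the control of genes of the 8-cell stage. In all 3 groups the oligos were given at 25 nM, and the medium then held 10 nM DZNep, which lowers histone methylation, and 5 nM TSA, an inhibitor of histone deacetylases, up to the harvest at 48 h. Trans-ISRIB at 0.7 uM, emricasan at 5 uM and the ROCK inhibitor Y-27632 at 10 uM were also present in every group for the first 24 h. The design therefore has no culture without DZNep and TSA, rests on 1 cell line, and includes untransfected cells, because the cells were not sorted. L1 transcripts themselves were not analysed here, so no check of the knockdown is given.

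Naive pluripotency is the state of the epiblast before implantation, and human cells held in it express genes that the later, primed state silences. TFCP2L1, TBX3 and ZFP42 (also called REX1) are DNA-binding proteins of this state. TFCP2L1 acts downstream of LIF and STAT3 in mouse cells, TBX3 is a T-box factor, and ZFP42 is a zinc finger protein related to YY1. DPPA2 and DPPA4 are partner proteins with SAP domains that bind chromatin, DPPA3 (STELLA) limits maintenance DNA methylation through UHRF1, and DPPA5 is an RNA-binding protein with a KH domain. UPP1 is uridine phosphorylase, which splits uridine for salvage. NLRP7 is a NOD-like receptor protein that is needed in the oocyte, and SUSD2 is a surface protein used to sort naive human cells.

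RefSeq promoter sequences on GRCh38.p14 were at hand for 8 of the 10 genes, all but TBX3 and SUSD2. The promoters of TFCP2L1 and UPP1, which rose with ASO-L1, of DPPA3 and DPPA5, which differed between sets of libraries, and of ZFP42, the steadiest gene, are shown to set these kinds side by side. They read 5′ to 3′ on the gene's strand and end at or before the transcription start. Capitals mark matches on either strand to 6 short motifs: GGGCGG (the core of the GC box) and the related GGGTGG, the box CCAAT, the AP-1 type site TGANTCA, the box TATAAA and the E-box CACGTG. TFCP2L1 lies on the minus strand at chr2:121285208-121285452, UPP1 on the plus strand at chr7:48089004-48089211 (the first of its 3 listed starts), DPPA5 on the minus strand at chr6:73354296-73354526, DPPA3 on the plus strand at chr12:7711183-7711432, and ZFP42 on the plus strand at chr4:187995521-187995770.
TFCP2L1: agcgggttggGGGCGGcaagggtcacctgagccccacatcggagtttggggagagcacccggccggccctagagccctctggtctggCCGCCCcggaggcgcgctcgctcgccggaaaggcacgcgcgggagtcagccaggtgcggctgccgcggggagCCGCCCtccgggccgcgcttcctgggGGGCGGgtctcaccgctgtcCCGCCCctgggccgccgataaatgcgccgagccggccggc
UPP1: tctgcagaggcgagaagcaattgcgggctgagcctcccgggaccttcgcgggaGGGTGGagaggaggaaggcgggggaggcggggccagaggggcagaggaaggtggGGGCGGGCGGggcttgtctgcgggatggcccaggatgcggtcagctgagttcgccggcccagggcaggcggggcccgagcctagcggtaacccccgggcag
DPPA5: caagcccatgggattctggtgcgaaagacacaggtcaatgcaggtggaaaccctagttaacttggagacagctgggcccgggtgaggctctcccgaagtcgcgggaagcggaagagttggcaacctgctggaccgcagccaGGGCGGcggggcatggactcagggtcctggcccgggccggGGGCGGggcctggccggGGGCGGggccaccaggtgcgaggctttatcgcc
DPPA3: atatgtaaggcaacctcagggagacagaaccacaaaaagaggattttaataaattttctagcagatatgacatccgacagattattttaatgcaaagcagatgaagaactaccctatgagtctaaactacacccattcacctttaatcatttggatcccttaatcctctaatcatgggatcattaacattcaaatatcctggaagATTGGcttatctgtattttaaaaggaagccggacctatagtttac
ZFP42: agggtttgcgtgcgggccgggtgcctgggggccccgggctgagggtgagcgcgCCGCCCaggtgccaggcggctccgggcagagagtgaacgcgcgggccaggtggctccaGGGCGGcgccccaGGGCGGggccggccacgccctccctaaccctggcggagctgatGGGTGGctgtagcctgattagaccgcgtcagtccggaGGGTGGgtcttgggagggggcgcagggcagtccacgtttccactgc

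The 8 promoters differ in CpG content, counted over the 250 bases before the start. TFCP2L1 has 32 CpG sites, ZFP42 has 23, UPP1 has 21 and DPPA5 has 19, against a median of 11 over 35116 promoters of that length. DPPA2 has 7, NLRP7 has 5, DPPA4 has 3 and DPPA3 has 2. GC content runs from 35.6% in DPPA3 to 76.8% in TFCP2L1, with a median of 58% over all promoters. GGGCGG matches 5 times in TFCP2L1, 3 times each in ZFP42, DPPA5 and UPP1 (where a pair overlaps and 1 lies past the printed end), 2 times in NLRP7, once in DPPA4, and not in DPPA3 or DPPA2. Of all promoters 42.6% hold it. CCAAT matches 2 times in NLRP7 and once each in DPPA3 and DPPA4, and 32.01% of all promoters hold it. GGGTGG matches 3 times in NLRP7, 2 times in ZFP42 and once each in UPP1 and DPPA2 (31.3% of all promoters). TATAAA (10.7%) and CACGTG (6.35%) match in no window of these 8 genes, and TGANTCA (6.57%) matches only in the window of a further start of UPP1.

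Total counts lay between 20367989 and 32180891 per library, and no library pair was identical. Levels are given as CPM, counts scaled by the effective library size, for which 3 counts equal 0.0941 to 0.148 CPM in a library. That range of depth puts every member but TBX3 far above the floor. Libraries carry the numbers 1 to 4 in each group. Averaged over the groups, 57.2% of genes differed between libraries 3 and 4 and libraries 1 and 2, so ASO-L1 against ASO-Ctr is also given within these sets. The sets were not tight in every group. The chi-square per gene, near 1 for sampling noise alone, was 17.6 between ASO-Ctr libraries 1 and 2 and 10.7 between ASO-L1 libraries 3 and 4, against 1.86 to 2.64 for the other 4 pairs within a set and 15.3 to 33.2 for pairs of a group across sets. The chi-square was summed over all tested genes, so genes with many counts weigh most. Mitochondrial genes took 8.08% and 4.74% of counts in ASO-Ctr 1 and 2, and 8.81% and 6.04% in ASO-L1 3 and 4. They took 6.38% to 7.93% in the libraries of the other 4 pairs, and their part in the chi-square was not tested. No source used here says what a set shares or whether libraries come from separate cultures, so p-values measure the spread between these libraries. Summed markers of human embryonic stem cells (6 genes) lay at 4127 to 4700 CPM in ASO-Ctr. Single naive and primed genes, picked after their values were seen, gave a mixed picture as means over the 12 libraries. Of the naive list, KLF4 averaged 55.8 CPM and KLF17 0.494 CPM, and of the primed list, LECT1 averaged 226 CPM and FGF5 0.0175 CPM. Whether the cells were in the naive state was not tested.

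Levels per kilobase of exon separate the members over a wide range. In ASO-Ctr, DPPA4 stood first at 523 ± 48.8 CPM per kb (SD, n = 4), followed by DPPA5 at 196 ± 36.6. ZFP42 (94.1 ± 2.33) and NLRP7 (86.2 ± 4.67) came next and overlapped, as did UPP1 (61.6 ± 5.10) and DPPA3 (42.6 ± 15.2). DPPA2 (19.6 ± 1.04), SUSD2 (4.72 ± 0.288), TFCP2L1 (2.38 ± 0.136) and TBX3 (0.151 ± 0.0742) closed the order without overlap between neighbours. These lengths are GENCODE v29 exon unions and so may not be the ones used in counting. Together the members took 0.230% to 0.256% of all counts, and DPPA4 alone gave 53.5% to 63.6% of the members' counts.

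**Figure D1:**
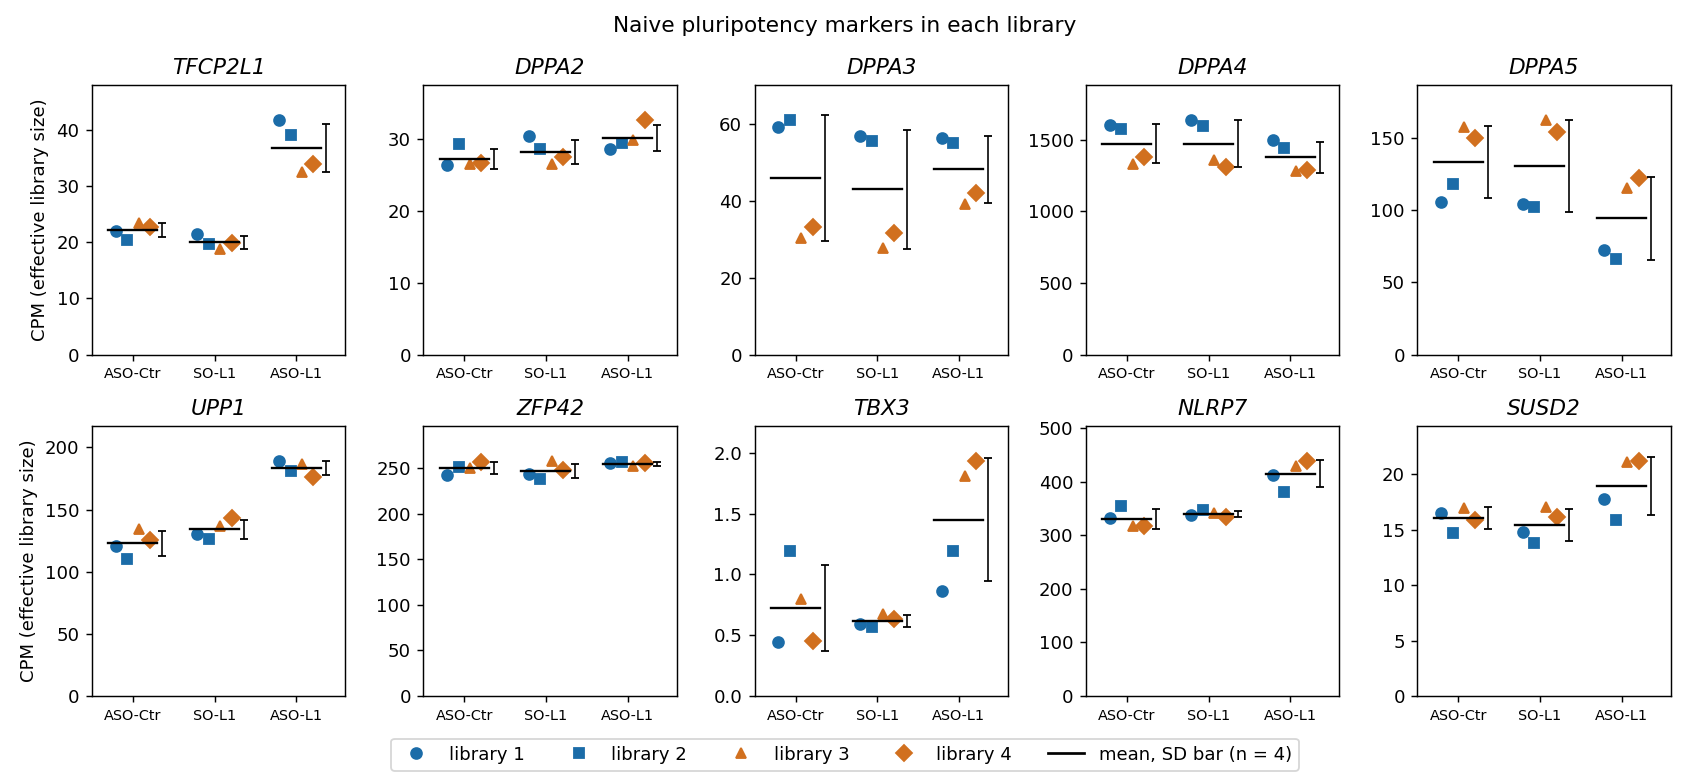
CPM of each of the 10 genes (y axis, from 0) in the 3 oligo groups (x axis), 1 point per library, with libraries 1 and 2 in blue and 3 and 4 in orange, the mean as a line and the SD as a bar (n = 4). TFCP2L1, UPP1 and NLRP7 stand higher in every ASO-L1 library than in any ASO-Ctr or SO-L1 library. DPPA3, DPPA4 and DPPA5 split by colour within each group, and over all groups the colours of DPPA5 overlap.

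ASO-L1 against ASO-Ctr asks how antisense oligos to L1 alter these genes relative to untargeted ones. TFCP2L1, UPP1, NLRP7 and TBX3 rose with ASO-L1, 0 members fell and 6 did not pass, at a Benjamini-Hochberg adjusted p under 0.05 over all genes in edgeR's quasi-likelihood test. Among all genes tested, 11.6% were called higher and 10.7% lower. At an unadjusted p under 0.05, 1 member was lower (DPPA5), and DPPA2 and SUSD2 were higher besides the called members. DESeq2 called 0 members lower. The median log2 change was 0.19 over the 10 members and -0.00 over all genes tested. With the library number as a block, 6 members were called higher and 2 lower, against 22.5% and 22.5% of all genes. In bulk RNA, a change in the number of cells that express a gene and a change in RNA per cell cannot be told apart.

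TFCP2L1, a grainyhead-family factor, stood at 22.0, 20.5, 23.4 and 22.7 CPM in ASO-Ctr libraries 1 to 4. Its levels were 21.5, 19.8, 18.8 and 19.9 CPM in SO-L1 and 41.8, 39.1, 32.6 and 34.04 CPM in ASO-L1. All 4 ASO-L1 libraries lay above all 8 others, and within ASO-L1 libraries 1 and 2 lay above 3 and 4. The group means were 22.2 ± 1.27 and 36.9 ± 4.29 CPM (SD, n = 4) in ASO-Ctr and ASO-L1. The log2 change was 0.74 ± 0.08 (SE; edgeR adjusted p = 4.09e-05), and 4 of 4 same-number pairs showed the rise.

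TBX3 was near the lower end of detection. ASO-Ctr libraries 1 to 4 held 9, 35, 20 and 11 counts of TBX3, or 0.443, 1.19, 0.795 and 0.454 CPM. SO-L1 libraries held 0.592, 0.566, 0.677 and 0.635 CPM, and ASO-L1 libraries held 0.865, 1.19, 1.81 and 1.93 CPM. ASO-L1 libraries 3 and 4 were the highest of all, whereas library 2 was level with ASO-Ctr library 2, so these groups overlapped. TBX3 rose by a log2 change of 0.96 ± 0.32 (edgeR adjusted p = 0.0474). This call was lost, with adjusted p from 0.0568 to 0.129, when any 1 of 10 of the 12 libraries was left out, all but ASO-Ctr 2 and ASO-L1 1.

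ZFP42, the zinc finger gene widely used as a pluripotency marker, had the smallest relative spread of the 10 genes, with an SD of 2.58% of the mean over the 12 libraries. It stood at 242, 251, 249.5 and 257 CPM with ASO-Ctr, at 243, 238, 257 and 248 CPM in SO-L1 and at 255, 257, 252 and 255 CPM in ASO-L1. The 3 groups overlapped throughout. The log2 difference of ASO-L1 from ASO-Ctr was 0.03 ± 0.03, with an interval of about 95% from -0.04 to 0.10 (edgeR adjusted p = 0.626).

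UPP1, the uridine phosphorylase, rose by a smaller fold than TFCP2L1. ASO-Ctr libraries 1 to 4 gave 121, 110.3, 135 and 126 CPM of UPP1. SO-L1 libraries gave 130.1, 126, 136 and 143 CPM, and ASO-L1 libraries gave 189, 181, 187 and 176 CPM. Every ASO-L1 library lay above every other library, with little spread within the group. UPP1 went from 123 ± 10.2 to 183 ± 5.57 CPM (SD, n = 4), a log2 change of 0.58 ± 0.06 (edgeR adjusted p = 2.36e-05).

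NLRP7 stood at 333, 355, 317.05 and 316.99 CPM in ASO-Ctr, at 337, 347, 342 and 335 CPM in SO-L1 and at 413, 381, 429.5 and 438 CPM in ASO-L1. Again no ASO-L1 library reached down to the others, and ASO-L1 library 2 came closest. The log2 change of NLRP7 was 0.33 ± 0.05 (edgeR adjusted p = 3.83e-04), from 330.4 ± 17.9 to 415 ± 25.2 CPM (SD, n = 4). TFCP2L1, UPP1 and NLRP7 were the 3 members without overlap between ASO-L1 and ASO-Ctr, a pattern held in the higher direction by 13.3% of all genes.

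SUSD2, the surface marker, stood at 16.5, 14.7, 17.0 and 15.9 CPM in ASO-Ctr, at 14.8, 13.8, 17.1 and 16.1 CPM in SO-L1 and at 17.8, 15.9, 21.1 and 21.2 CPM in ASO-L1. Only ASO-L1 libraries 1, 3 and 4 exceeded the highest control, and library 2 lay inside its range. The log2 difference was 0.24 ± 0.10 (edgeR adjusted p = 0.111), and 0.00132 was the adjusted p with the library number as a block. Without ASO-L1 library 2 the adjusted p was 0.0314.

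DPPA5, the KH-domain gene, was the member with the largest estimate in the lower direction. Its levels were 106, 118, 158 and 149.9 CPM in ASO-Ctr, 104, 102, 162 and 154 CPM in SO-L1, and 72.7, 66.2, 115 and 122 CPM in ASO-L1. In each group libraries 3 and 4 exceeded libraries 1 and 2, and ASO-L1 was the lowest group within both sets. Over all 4 libraries the log2 difference was -0.50 ± 0.22 (edgeR adjusted p = 0.141). With the library number as a block DPPA5 was called lower (edgeR adjusted p = 5.49e-04).

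DPPA4 gave the most counts of all members and moved little. It stood at 1607, 1576, 1335 and 1379 CPM in ASO-Ctr, 1638, 1597, 1357 and 1308 CPM in SO-L1, and 1496, 1446, 1281 and 1291 CPM in ASO-L1. ASO-L1 was below the same-number ASO-Ctr library in 4 of 4 pairs, yet the groups overlapped, and in each group libraries 1 and 2 lay above libraries 3 and 4. The log2 difference was -0.10 ± 0.09 (edgeR adjusted p = 0.486, and 0.00381 with the block). Its partner DPPA2 lay between 26.3 and 32.6 CPM in all 12 libraries, with a log2 difference of 0.15 ± 0.06 (edgeR adjusted p = 0.121, and 0.0267 with the block).

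DPPA3, the UHRF1-binding factor, showed the widest relative spread of the members above 1 CPM within ASO-Ctr and within SO-L1. ASO-Ctr libraries 1 to 4 gave 59.3, 61.0, 30.4 and 33.2 CPM, SO-L1 libraries 56.8, 55.6, 27.7 and 31.7 CPM, and ASO-L1 libraries 56.3, 55.0, 39.2 and 42.0 CPM. In libraries 1 and 2 the 3 groups were close together, and in libraries 3 and 4 ASO-L1 was the highest group. The overall log2 difference was 0.07 ± 0.28 (edgeR adjusted p = 0.902), and its sign turned in 4 of the 12 fits that left out 1 library. A row for the pseudogene DPPA3P2 held 1412 counts over the 12 libraries, so reads of DPPA3 may have been split with it.

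**Figure D2:**
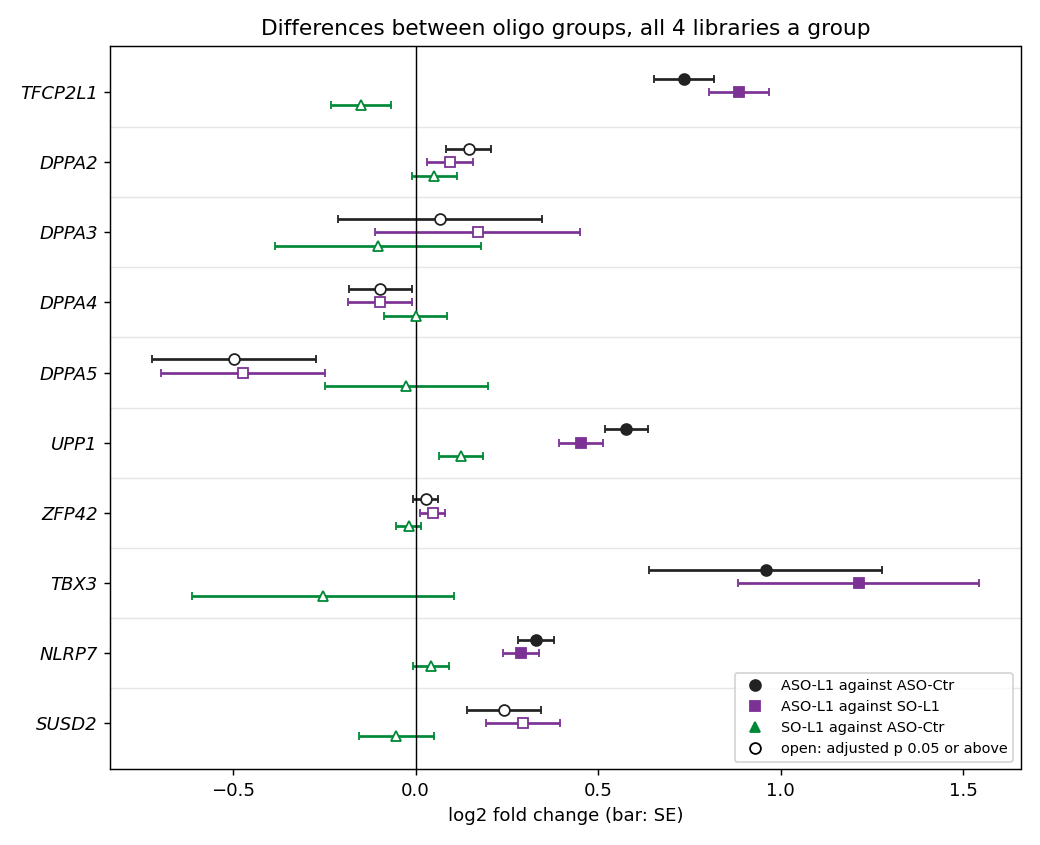
Log2 fold change (x axis) of each gene (y axis) with its SE as a bar, for ASO-L1 against ASO-Ctr (circles), ASO-L1 against SO-L1 (squares) and SO-L1 against ASO-Ctr (triangles). Filled points passed an adjusted p under 0.05: TFCP2L1, UPP1, TBX3 and NLRP7 in both comparisons with ASO-L1, and none for SO-L1 against ASO-Ctr.

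ASO-L1 against SO-L1 sets the antisense oligos beside the sense oligos to the same element, and shares the ASO-L1 libraries with the comparison above. TFCP2L1, UPP1, NLRP7 and TBX3 were called higher, 4 of 10 members, and 0 were called lower, where 10.7% of all genes were higher and 9.64% lower. With the block 5 members were higher and 2 lower, against 21.6% and 21.7% of all genes. At an unadjusted p under 0.05 no further member was lower and SUSD2 was also higher. DESeq2 called 0 lower and 5 higher. The log2 change was 0.89 ± 0.08 for TFCP2L1 (edgeR adjusted p = 1.35e-05) and 0.45 ± 0.06 for UPP1 (1.73e-04). It was 0.29 ± 0.05 for NLRP7 (edgeR adjusted p = 0.00122) and 1.21 ± 0.33 for TBX3 (0.0200). TBX3, TFCP2L1, UPP1 and NLRP7 did not overlap between these groups, as 12.7% of all genes did not in the higher direction. Within libraries 1 and 2 alone TBX3 was at 0.85 ± 0.37 (edgeR adjusted p = 0.0698), and within libraries 3 and 4 it rose by 1.496 ± 0.31. The adjusted p of TBX3 over all libraries rose to 0.0589 without ASO-L1 library 3, 0.0588 without ASO-L1 library 4 and 0.0526 without SO-L1 library 2.

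The other 6 members did not pass against SO-L1. SUSD2 had a log2 difference of 0.29 ± 0.10 (edgeR adjusted p = 0.0577), which passed in DESeq2 (adjusted p = 0.0405), with the block (1.42e-04), and without ASO-L1 library 2 (0.0169) or SO-L1 library 3 (0.0443). DPPA5 was at -0.47 ± 0.22 (edgeR adjusted p = 0.168) and DPPA4 at -0.10 ± 0.09 (0.490), and both were called lower with the block, at adjusted p = 9.62e-04 and 0.00452. DPPA3 (0.17 ± 0.28), DPPA2 (0.09 ± 0.06) and ZFP42 (0.05 ± 0.03) passed neither way. The authors' deposited table for this comparison lists TFCP2L1 at 0.88, UPP1 at 0.45, NLRP7 at 0.28 and TBX3 at 1.17 on the log2 scale. The authors' deposited table also puts SUSD2 at 0.28 (adjusted p = 0.0223) and DPPA5 at -0.49 (adjusted p = 0.00227).

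SO-L1 against ASO-Ctr asks whether sense oligos differ from untargeted ones. In edgeR's quasi-likelihood test 0 of 10 members were called in either direction, and 0 had an unadjusted p under 0.05. DESeq2 also called 0 members. Of all genes, 0.029% were called. The log2 differences ran from -0.25 ± 0.36 for TBX3 to 0.12 ± 0.06 for UPP1. The interval of about 95% was -0.31 to 0.01 for TFCP2L1, -0.05 to 0.14 for NLRP7 and 0.01 to 0.24 for UPP1.

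Libraries 3 and 4 were then compared with libraries 1 and 2, averaged over the 3 oligo groups. DPPA5, SUSD2 and UPP1 were higher in libraries 3 and 4, DPPA3 and DPPA4 were lower, and 5 members did not pass, where 29.5% of all genes were higher and 27.7% lower. DPPA3 differed most, with a log2 difference of -0.77 ± 0.03 (edgeR adjusted p = 8.18e-26). Its 6 libraries numbered 1 and 2 held 55.0 to 61.0 CPM and the 6 others 27.7 to 42.0 CPM, without overlap. DPPA4 did not overlap either, at 1446 to 1638 against 1281 to 1379 CPM, and 9.27% of all genes were lower without overlap. Its log2 difference was -0.23 ± 0.02 (edgeR adjusted p = 3.21e-12).

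DPPA5 went the other way, with a log2 difference of 0.62 ± 0.03 (edgeR adjusted p = 7.98e-21). SUSD2 was higher by 0.21 ± 0.05 and UPP1 by 0.09 ± 0.03 on the log2 scale (edgeR adjusted p = 1.42e-04 and 0.00257). TFCP2L1 was at -0.08 ± 0.04 (edgeR adjusted p = 0.0811), and passed when ASO-Ctr 2, ASO-L1 2, ASO-L1 4 or SO-L1 2 was left out (0.0330 to 0.0494). NLRP7, ZFP42, DPPA2 and TBX3 passed neither way. Among markers of other cells, those of fibroblasts and feeders (9 genes) summed to 196 to 237 CPM in libraries 1 and 2 and to 270 to 300 CPM in libraries 3 and 4. Of these 9 genes, 6 averaged under 1 CPM in ASO-Ctr and in SO-L1, and 5 in ASO-L1. FAP was at 0 in all 3 groups, DCN in SO-L1 and ASO-L1, and LUM in SO-L1. The sum thus rests on few of the genes. Whether fibroblast or feeder RNA was present, and its part in these differences, was not tested.

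**Figure D3:**
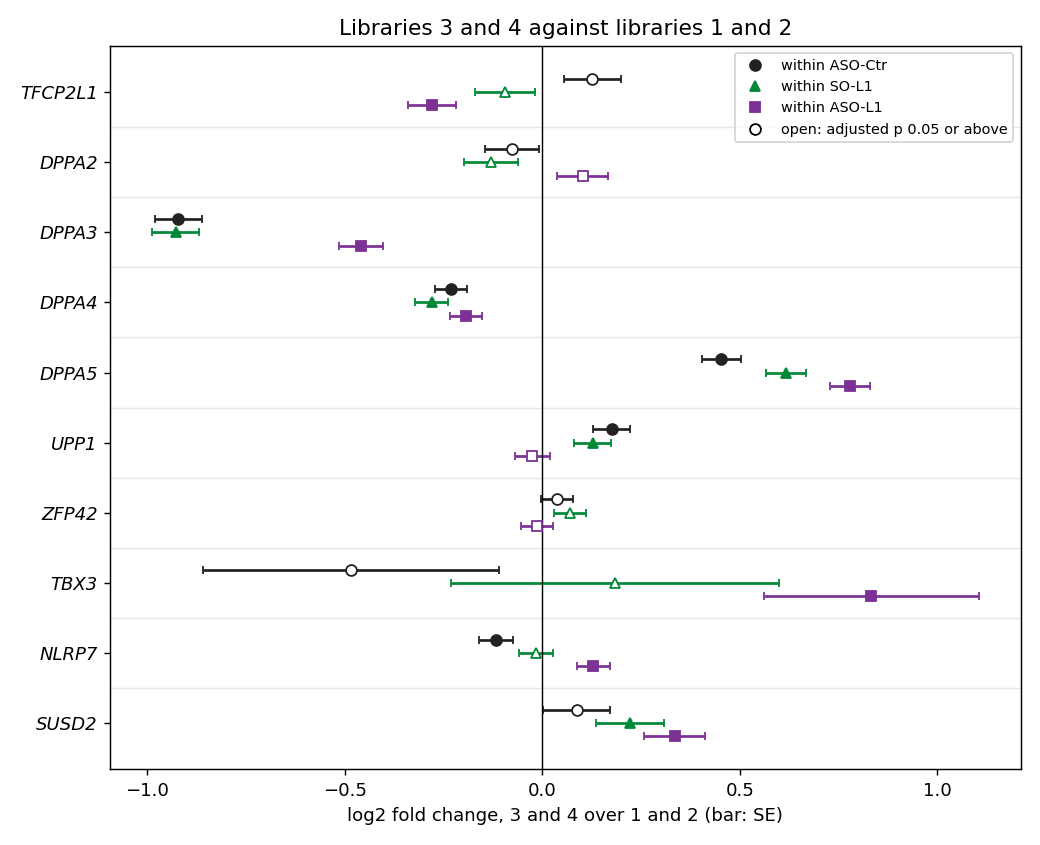
Log2 fold change of libraries 3 and 4 over libraries 1 and 2 (x axis) for each gene (y axis) within ASO-Ctr (circles), SO-L1 (triangles) and ASO-L1 (squares), with the SE as a bar and filled points at an adjusted p under 0.05. DPPA3 stands at -0.92 and -0.93 in ASO-Ctr and SO-L1 and at -0.46 in ASO-L1, while DPPA4 lies between -0.28 and -0.19 in all 3 groups.

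Within oligo groups the sets differed to unlike extents. DPPA3 was lower in libraries 3 and 4 by log2 differences of -0.92 with ASO-Ctr, -0.93 with SO-L1 and only -0.46 with ASO-L1. DPPA5 was higher by 0.45, 0.62 and 0.78 in the same order. UPP1 was higher in ASO-Ctr (0.18) and SO-L1 (0.13) but did not pass in ASO-L1 (-0.03, edgeR adjusted p = 0.701). SUSD2 was higher in SO-L1 (0.22) and ASO-L1 (0.34) but did not pass in ASO-Ctr (0.09, edgeR adjusted p = 0.458). TFCP2L1 and NLRP7 were close to level in SO-L1 (-0.09 and -0.02), but in ASO-L1 TFCP2L1 was lower (-0.28) and NLRP7 higher (0.13) in libraries 3 and 4. Within ASO-Ctr the estimates had the opposite sign, with TFCP2L1 at 0.13 (edgeR adjusted p = 0.176) and NLRP7 lower at -0.12 (0.0259).

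ASO-L1 against ASO-Ctr was next estimated in each set. In libraries 1 and 2, TFCP2L1, UPP1 and NLRP7 were called higher and DPPA4 and DPPA5 lower, where 18.5% of all genes were higher and 18.3% lower. In libraries 3 and 4, 7 members were higher (TFCP2L1, UPP1, NLRP7, TBX3, SUSD2, DPPA2 and DPPA3) and 1, DPPA5, was lower, where 16.6% of all genes were called in each direction. TFCP2L1 rose by 0.93 ± 0.07 in libraries 1 and 2 and by 0.53 ± 0.07 in libraries 3 and 4 on the log2 scale. UPP1 rose by 0.68 ± 0.05 and 0.48 ± 0.05, and NLRP7 by 0.21 ± 0.04 and 0.45 ± 0.04. DPPA5 fell by 0.70 and 0.37. TBX3 was at 0.25 ± 0.32 in the first set and rose by 1.56 ± 0.32 in the second.

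The difference between these estimates was itself tested as an interaction. DPPA3, DPPA5 and NLRP7 had a higher log2 change in libraries 3 and 4 and TFCP2L1 a lower one, 4 of 10 members, where 0.331% of all genes were called higher and 0.447% lower. For DPPA3 the log2 change was -0.11 ± 0.05 in libraries 1 and 2 and 0.35 ± 0.06 in libraries 3 and 4, a difference of 0.46 ± 0.08 (edgeR adjusted p = 3.71e-04). Its call held in all 12 fits that left out 1 library. The same contrast against SO-L1 gave 0.47 ± 0.08 for DPPA3 (edgeR adjusted p = 2.50e-04), with 1 of 10 members called and 1.76% of all genes.

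The remaining calls of difference were less steady. The difference was 0.32 ± 0.07 for DPPA5 (edgeR adjusted p = 0.0106), and its adjusted p reached 0.175 without ASO-L1 library 2, 0.111 without ASO-Ctr 4, 0.0872 without ASO-Ctr 2, 0.0684 without ASO-L1 4 and 0.0844 in DESeq2. TFCP2L1 was at -0.41 ± 0.09 (edgeR adjusted p = 0.0165), which was lost in DESeq2 (adjusted p = 0.283). Its call was also lost without ASO-Ctr 2 (0.119), ASO-Ctr 3 (0.146), ASO-Ctr 4 (0.0556), ASO-L1 1 (0.145) or ASO-L1 3 (0.0859). NLRP7 was at 0.25 ± 0.06 (edgeR adjusted p = 0.0224), and was lost without ASO-Ctr 2 (0.0897), ASO-Ctr 3 (0.108), ASO-Ctr 4 (0.0980), ASO-L1 2 (0.291) or ASO-L1 4 (0.0875). UPP1 at -0.20 ± 0.06 and TBX3 at 1.32 ± 0.46 did not pass (edgeR adjusted p = 0.173 and 0.247), but did without ASO-Ctr library 1 (0.0115 and 0.0207).

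**Figure D4:**
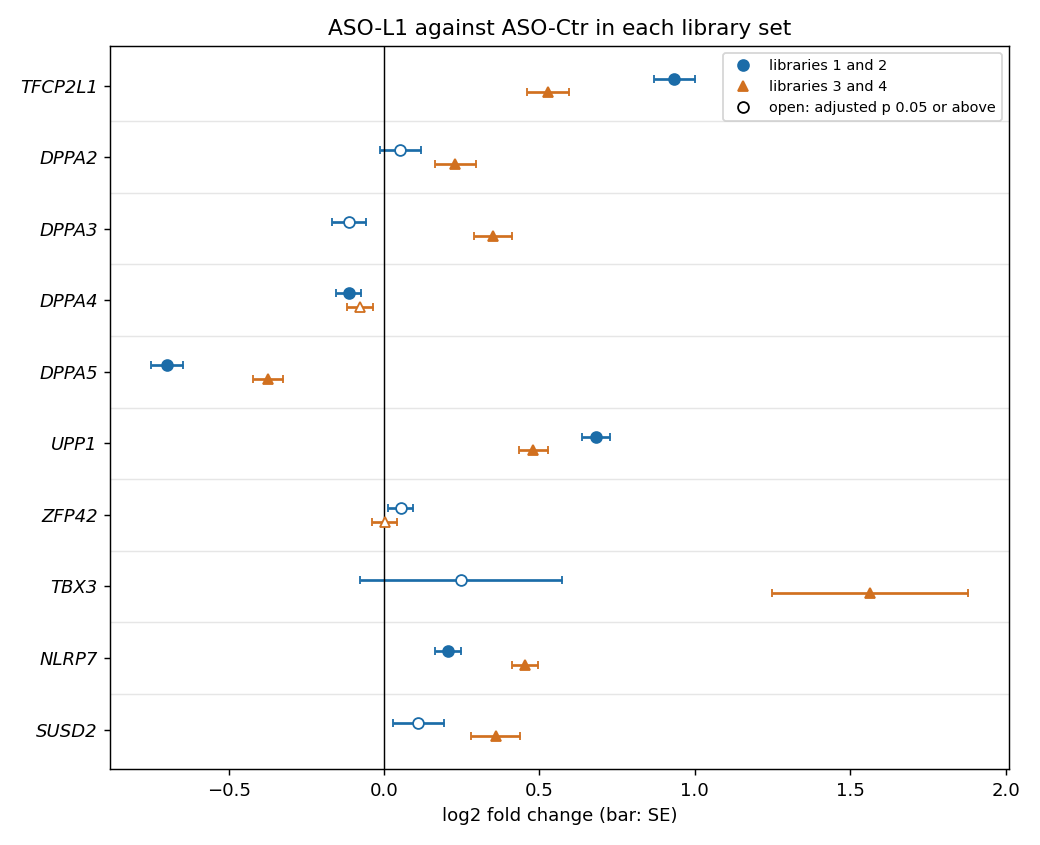
Log2 fold change of ASO-L1 over ASO-Ctr (x axis) for each gene (y axis) in libraries 1 and 2 (blue circles) and in libraries 3 and 4 (orange triangles), with the SE as a bar and filled points at an adjusted p under 0.05. TFCP2L1, UPP1 and NLRP7 are to the right of 0 in both sets and DPPA5 to the left, while DPPA3 moves from -0.11 to 0.35.

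Shares of the sum of squares of log2 CPM over the 12 libraries summarise these kinds of gene. The oligo group held 93.4% of it for TFCP2L1, 91.5% for UPP1 and 85.7% for NLRP7, against a median of 28.1% over all genes. The library set held 86.5% for DPPA3, 83.6% for DPPA4 and 59.5% for DPPA5, against a median of 26.2%. For DPPA5 the oligo group held a further 36.3%. SUSD2 was also divided, with 48.3% by oligo group and 33.2% by set. ZFP42 had an SD of 0.038 in log2 CPM, against a median of 0.193 over all genes, and no single share of it was above 29.1%.

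**Figure D5:**
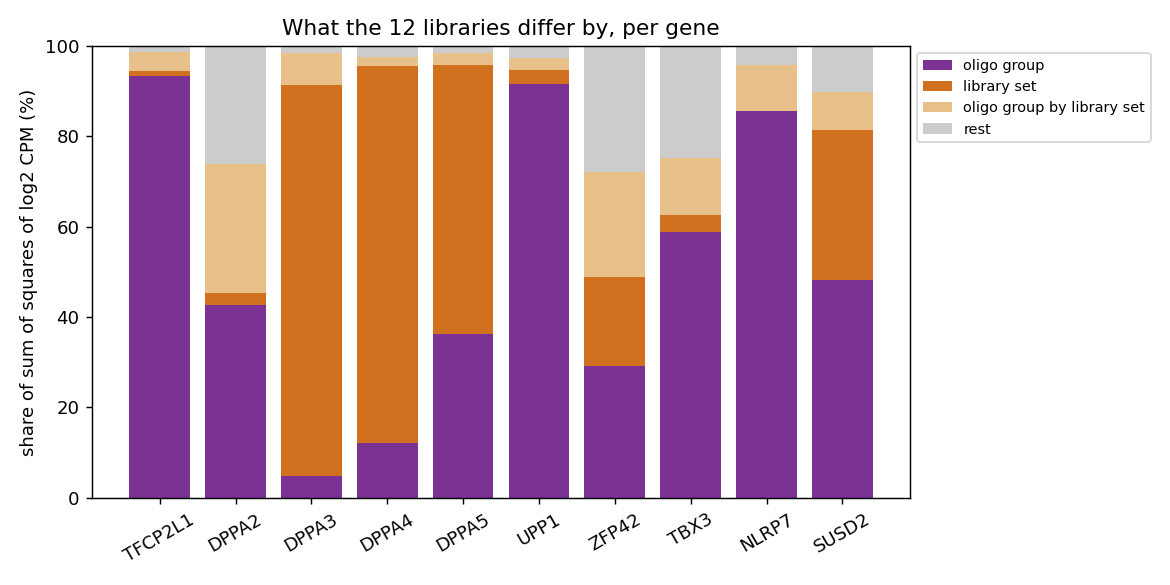
Share (y axis, percent) of each gene's sum of squares of log2 CPM over the 12 libraries that lies between oligo groups, between library sets, in their combination, and in the rest. The bars of TFCP2L1, UPP1 and NLRP7 are mostly oligo group (93.4%, 91.5% and 85.7%), and those of DPPA3 and DPPA4 mostly library set (86.5% and 83.6%).

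The authors' deposited log2 table is batch corrected by its name, with no batches given. In it the difference between sets was near 0 for every member but TBX3 (-0.11), where DPPA3 went from -0.77 in log2 CPM to 0.00 and DPPA5 from 0.62 to 0.00. The differences of ASO-L1 from ASO-Ctr within sets remained in the authors' values, at -0.09 and 0.36 for DPPA3 and at 0.92 and 0.52 for TFCP2L1.

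Other genes of the pathways around the members were described from lists. Each count below stands against 11.6% higher and 10.7% lower over all genes in ASO-L1 against ASO-Ctr, or 22.5% and 22.5% with the block. Of 24 further naive genes 18 were tested, of which 8 were called higher, 1 lower and 9 not in ASO-L1 against ASO-Ctr (with the block 9 and 6), with a median log2 change of 0.19. The median was 0.11 against SO-L1 (7 higher and 2 lower), -0.03 against ASO-Ctr within libraries 1 and 2 (8 higher and 4 lower) and 0.17 within libraries 3 and 4 (9 higher and 4 lower). The 1 lower gene was ST6GAL1, a sialyltransferase gene (-0.41 ± 0.11), named after its values were seen. KLF4, a LIF target, rose from 43.7 ± 4.49 to 80.7 ± 5.42 CPM (log2 change 0.88 ± 0.10, edgeR adjusted p = 4.75e-05). KLF5, its relative, rose from 10.9 ± 0.345 to 15.7 ± 2.79 CPM, and FAM151A from 0.359 ± 0.159 to 2.53 ± 1.38 CPM. Of 14 genes of LIF and STAT3 signalling, the input to TFCP2L1 in mouse cells, edgeR called 7 higher and 0 lower (with the block 10 and 2), with a median of 0.30. Against SO-L1 the counts were 6 higher and 1 lower, where 10.7% and 9.64% of all genes were called. Against ASO-Ctr they were 10 and 0 within libraries 1 and 2 (18.5% and 18.3% of all genes). Within libraries 3 and 4 they were 9 and 1 (16.6% of all genes in each direction). JAK1, a kinase of the receptor, rose from 19.2 ± 0.969 to 30.7 ± 3.52 CPM. PIM3, a kinase gene, rose from 39.5 ± 1.51 to 53.6 ± 1.92 CPM. Of the 7 genes not called against ASO-Ctr over all libraries, LIFR (16.7 ± 1.98 to 15.7 ± 1.56 CPM) and JAK2 (7.73 ± 0.587 to 6.73 ± 0.922 CPM) averaged lower in ASO-L1. So did STAT3 (197 ± 6.24 to 183 ± 4.33 CPM) and PIAS3 (29.8 ± 3.07 to 27.4 ± 2.86 CPM). LIFR, JAK2, STAT3 and PIAS3 were named after their values were seen.

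Relatives of single members moved in both directions or did not pass. Among the 5 grainyhead relatives of TFCP2L1, GRHL1 rose (0.48 ± 0.15), GRHL2 (-0.36 ± 0.08) and GRHL3 (-0.35 ± 0.11) fell, and TFCP2 (-0.07 ± 0.05) and UBP1 (0.10 ± 0.05) did not pass. Of 4 tested relatives of NLRP7 and its maternal-effect partners 0 passed in edgeR (0 higher and 1 lower with the block), with NLRP2 at -0.13 ± 0.05 and ZBED3 at -0.04 ± 0.09. For the KH family of DPPA5, KHDC1 (0.08 ± 0.07) and KHDC3L (-0.17 ± 0.14) did not pass. Of 4 tested T-box genes 0 passed, with MGA at 0.03 ± 0.06 and TBX6 at 0.22 ± 0.20. Of 13 tested genes of pyrimidine metabolism, which includes the salvage pathway of UPP1, edgeR called 0 higher and 1 lower (with the block 4 and 4). That gene was SLC29A2, a nucleoside transporter (-0.24 ± 0.05). YY1, the relative of ZFP42, fell by 0.13 on the log2 scale, and YY2 was at -0.31 ± 0.28.

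DNA methylation genes, the field of DPPA3, gave 1 higher and 1 lower of 9 (1 and 4 with the block). DNMT3B, a de novo methyltransferase, fell from 2908 ± 77.7 to 2301 ± 32.9 CPM, and DNMT3L, its cofactor, rose from 12.8 ± 3.74 to 20.8 ± 3.48 CPM. UHRF1, the partner of DPPA3, was at -0.14 ± 0.33. Of 12 tested germline genes known to be silenced by promoter methylation, edgeR called 0 higher and 1 lower (with the block 0 and 4), namely TDRD1 (-0.36 ± 0.12). Of 11 core pluripotency genes 0 were called higher and 7 lower (with the block 0 and 10), DNMT3B, GDF3 (-0.39 ± 0.05) and TERF1 (-0.37 ± 0.05) first among them. Of 18 tested primed genes 1 was called higher and 3 lower (with the block 5 and 7), the latter including TCF7L1 (-0.36 ± 0.08) and LECT1 (-0.36 ± 0.08).

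Marker sums of other cell types moved with ASO-L1 as well. Neural markers (5 genes) summed to 411 to 446 CPM in ASO-Ctr, 454 to 495 CPM in SO-L1 and 514 to 642 CPM in ASO-L1. Mesoderm markers (7 genes) summed to 10.9 to 14.3, 11.5 to 14.4 and 17.5 to 18.3 CPM, with HAND2 and FOXF1 at 0 in ASO-Ctr. Of these 7 genes, 5 averaged under 1 CPM in each group. Only 2 were tested, of which 1 was called higher in ASO-L1 against ASO-Ctr and TBX6 did not pass. Endoderm markers (9 genes) summed to 30.1 to 33.8, 28.2 to 32.7 and 22.1 to 24.8 CPM. That sum was mostly PDGFRA, a growth factor receptor gene, which fell from 27.2 ± 2.62 CPM in ASO-Ctr to 16.7 ± 1.10 CPM in ASO-L1, while GATA6, an endoderm factor, rose from 0.0904 ± 0.127 to 1.14 ± 0.368 CPM and the other 3 tested did not pass; both genes were picked after their values were seen. Likewise NES gave most of the neural sum, at 421 ± 16.5 and 575 ± 64.5 CPM. Markers of trophectoderm and amnion (11 genes) summed to 12.3 to 14.9, 12.3 to 15.2 and 12.98 to 19.1 CPM. Stem cell markers summed to 3632 to 4078 CPM in ASO-L1, below the 4127 to 4700 CPM of ASO-Ctr. The part of these shifts in the changes of the 10 genes was not tested.

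The genes most like each member over the 12 libraries were found by Pearson's r in log2 CPM among 13254 genes, as a description, since the libraries share groups and sets. TFCP2L1 was most like WEE1 (r = 0.980), SIK2 (0.978) and HEG1 (0.969). UPP1 was most like ATG9B (0.993), CTD-3099C6.9 (0.989) and HES4 (0.988), and NLRP7 was close to RGS2 (0.971) and SYNPO (0.966). DPPA3 was nearest to TBL2 (0.978), NUDT4 (0.978) and SLC2A3 (0.977), DPPA4 to TDGF1 (0.989), CCNG1 (0.989) and CDA (0.988), and DPPA5 to CBR1 (0.987), DOCK2 (0.986) and EZH2 (0.984). For SUSD2 they were IL23A (0.957), MCOLN1 (0.939) and GPR27 (0.936). The steadier or lower genes had looser neighbours, with CDC123 (0.945) for ZFP42, CDC5L (0.943) for TBX3 and CCNB2 (0.942) for DPPA2.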

How the data were processed

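RNA sequencing was done on 12 stranded poly(A) libraries, 4 per oligo group. The members and gene lists were chosen with earlier results of these data known. Per the submitters' processing notes, Trim Galore 0.4.0, TopHat2 2.0.13 and featureCounts of Subread 1.5.0 were used with hg19. The deposited counts are raw counts per gene symbol. Their header stands 1 column to the left, so columns were placed by number and checked against the log2 table. A row with no gene name, 0 to 3 counts per library, was left out. By the name of their table, the deposited log2 values are normalised and batch corrected, by a method not given in the sources used here. The authors' table for ASO-L1 against SO-L1 holds log2 fold changes, p-values, and t and B scores; these deposited scores were not used.

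Counts were fitted in R 4.3.3 with edgeR 4.0.16 (filterByExpr by group with a least count of 10 and a least total of 15, TMM, quasi-likelihood F test, two-sided, with Benjamini-Hochberg adjustment over 17228 genes). All 12 libraries entered a fit of group means, and a fit of 6 means (group by library set) gave set differences and interactions. The SE is the log2 change divided by the square root of F, and an interval of about 95% is 1.96 SE either way. With so few libraries such an interval is narrower than a full 95%. Log2 CPM used a prior count of 2. Once group means were removed, same-number libraries correlated across genes at r = 0.450 to 0.561 (12 pairs). Libraries of 1 set but unlike numbers correlated as well, at 0.455 to 0.543, and those of unlike sets at -0.530 to -0.426. Of the 12 libraries, 8 correlated best with a library of their own number. These values show the sets and do not settle whether the numbers pair the libraries. The block takes them as pairs, which is an assumption. Alternatives were the block, DESeq2 1.42.0, RLE size factors, no low-count filter, each library left out, and, chosen after seeing the data, each library set alone. The fits were tested on simulated counts with known changes. Named genes are all members, up to 3 called genes with the smallest p per list (the 2 most abundant where none passed, all for the 2 small families), and the 3 most alike by r; UHRF1 was added after its values were seen. Not every gene taken by this rule is reported here. The floor of 3 counts covers the error of counting alone, as reads copied by PCR are not separate molecules. Sequences are RefSeq's on GRCh38.p14 and were not used for counts.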

Additional observations from a re-analysis of the deposited data

Results flagged for a closer look

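In 4 genes the log2 change of ASO-L1 against ASO-Ctr differed between library sets by the interaction test in edgeR, as libraries 3 and 4 minus libraries 1 and 2. The difference was 0.463 for DPPA3, 0.325 for DPPA5, 0.246 for NLRP7 and -0.405 for TFCP2L1. For DPPA3 the difference also appeared against SO-L1, at 0.47. Mean levels of DPPA3 in libraries 1 and 2 were 60.1 CPM in ASO-Ctr and 55.7 CPM in ASO-L1, and in libraries 3 and 4 they were 31.8 and 40.6 CPM. DPPA2 stood at 29.31 CPM in ASO-Ctr library 2, apart from the other 3 libraries of its group at 26.3 to 26.6 CPM by Dixon's criterion. Of 30 groups of 4 libraries tested in this way, chance would mark about 1 in 20.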

How the results depend on the processing

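The calls of TFCP2L1, UPP1 and NLRP7 as higher in ASO-L1 kept their direction and their side of the threshold, against ASO-Ctr and against SO-L1, under the block, DESeq2, RLE size factors, no low-count filter, every left-out library and either library set alone. With the replicate block on the library number, genes called went from 3847 to 7747 (ASO-L1 against ASO-Ctr), from 3497 to 7469 (ASO-L1 against SO-L1) and from 5 to 243 (SO-L1 against ASO-Ctr), and 2 members were called lower in each comparison with ASO-L1; the block lost no member's call. DESeq2 called 48 genes for SO-L1 against ASO-Ctr, and 61 genes and 0 members in the lower direction for the interaction; with no filter 8 genes were called for SO-L1 against ASO-Ctr. In libraries 1 and 2 alone, genes called numbered 6332, 6120 and 158 in these 3 comparisons, with 2 members lower in each comparison with ASO-L1. In libraries 3 and 4 alone, 5461 (ASO-L1 against SO-L1) and 134 genes (SO-L1 against ASO-Ctr) were called, with 7 members higher and 1 lower in both comparisons with ASO-L1.

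Signs turned for small differences. For SO-L1 against ASO-Ctr, DPPA4 became -0.00133 with the block, -0.00240 in DESeq2, -0.00146 with RLE size factors and -0.0260 in libraries 3 and 4, where DPPA5 became 0.0389, TBX3 0.0679 and SUSD2 0.0142, and NLRP7 became -0.00782 in libraries 1 and 2. In libraries 1 and 2 DPPA3 became -0.11 against ASO-Ctr, and against SO-L1 DPPA3 became -0.0137 and DPPA2 -0.0215. With 1 library left out, DPPA3 against ASO-Ctr ran from -0.0961 to 0.238, and SO-L1 against ASO-Ctr ran from -0.265 to 0.0681 for DPPA3, -0.0538 to 0.0538 for DPPA4, -0.148 to 0.0753 for DPPA5 and -0.424 to 0.121 for TBX3. NLRP7 between sets ran from -0.0293 to 0.0145. Genes called in the interaction then ran from 74 to 253, and members from 1 to 4 higher and from 0 to 2 lower. A set with 1 library of a group left has its spread taken from the other groups. The cause of these shifts was not tested. Depth limits only TBX3, at 9 to 52 counts per library.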
